A study of Mus musculus with 4 samples.

Results

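The angiopoietin-Tie and PDGF genes through which brain endothelium and pericytes keep small vessels stable were followed across the cell classes of 4 single-cell RNA libraries of mouse cortex late after stroke. The members were fixed by name: the receptors Tek and Tie1, the receptor phosphatase Ptprb, the angiopoietins Angpt1 and Angpt2, the ligands Pdgfb and Pdgfd, and the receptor Pdgfrb. They are 8 of the 32285 genes in the count tables, and all 8 had UMIs (unique molecular identifiers, one per captured transcript). The mice were C57BL/6N males aged 10 months, and all groups received antibody for 10 weeks. One group had sham surgery and an isotype control antibody. The other 3 had a dMCAO stroke, in which a distal branch of the middle cerebral artery is closed, and received the isotype control, anti-VCAM1 or anti-VLA4. VCAM1 is an adhesion molecule of activated endothelium, and VLA4 is the leukocyte integrin that binds it. Infarct core and about 2 mm of cortex around it came from 4 to 5 mice per group, pooled before dissociation, so each group is 1 library and has no replicate. Intervals on differences between libraries therefore cover counting error only, and no test across animals could be made.

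Tek (also called Tie2) is the receptor tyrosine kinase of endothelium that binds angiopoietins, and Tie1 is its relative, which binds no angiopoietin on its own and modulates Tek. Angpt1, made by mural and other perivascular cells, activates Tek and holds vessels quiescent, whereas Angpt2 comes from endothelium and opposes Angpt1 in many settings. Ptprb (VE-PTP) dephosphorylates Tek. Endothelial Pdgfb recruits and holds pericytes through the receptor Pdgfrb on these cells, and Pdgfd is a second ligand of that receptor.

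Of the members, 3 had a RefSeq promoter sequence (GRCm38.p6), and those of Tek and Pdgfd, the members with the largest shares of their UMIs in endothelial-like cells, are shown as the 250 bases before the start. Capitals mark GGAA or its reverse complement TTCC, the core bound by ETS factors, a family known for its part in endothelial gene expression.
Tek, chr4:94739039-94739288, plus strand: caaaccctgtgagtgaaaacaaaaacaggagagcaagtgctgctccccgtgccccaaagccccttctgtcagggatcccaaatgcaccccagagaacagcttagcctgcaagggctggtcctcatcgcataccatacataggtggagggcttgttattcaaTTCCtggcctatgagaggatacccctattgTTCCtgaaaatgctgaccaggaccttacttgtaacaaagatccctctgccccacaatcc
Pdgfd, chr9:6168236-6168485, plus strand: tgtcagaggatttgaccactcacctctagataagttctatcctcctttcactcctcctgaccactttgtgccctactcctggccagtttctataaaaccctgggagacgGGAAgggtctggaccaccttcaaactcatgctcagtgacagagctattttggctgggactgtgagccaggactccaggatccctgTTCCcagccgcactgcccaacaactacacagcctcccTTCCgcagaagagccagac
The core occurred 2 times before Tek and 3 times before Pdgfd, and at least 1 match was present in 93.4% of the 32851 promoters of that length. At least 2 matches were present in 76.8% of them and at least 3 in 54.7%, so neither count stands out. The RefSeq promoter sequence of Tie1, chr4:118489850-118490099 on the minus strand, had 7 matches, a number reached by 3.82% of promoters. This stretch overlaps the Tie1 span given below, 118471191 to 118490061, so it does not lie wholly before the gene as placed there. These are letter matches and show no binding.

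The libraries are always given in the order sham, stroke isotype, anti-VCAM1, anti-VLA4. Filtering kept 1514, 2832, 4657 and 6209 cells, at medians of 4515 to 5456 UMIs per cell. Cells were clustered together and each cluster was named from marker genes, none of which is a member. Endothelial-like cells numbered 549, 648, 2397 and 3078, with all 12 endothelial markers detected in each library, and pericyte-like cells numbered 10, 14, 56 and 93. Since cells were stained for CD31 and CD45, and which stained fractions were collected is not stated, the numbers of cells per class are not read as abundance in tissue. The sham and stroke isotype libraries shared 59 cell barcodes, 3.83% of the smaller library, against at most 0.277% for the other pairs. Of these, 6 sham and 8 stroke isotype cells were endothelial-like and none was pericyte-like, and without them every member ratio in endothelial-like cells stayed within the interval given below. A further cluster of 1, 8, 107 and 169 cells carried all 12 endothelial and 5 of 10 pericyte markers and was left out of both classes.

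In GENCODE M21 (GRCm38) Tek lies on chromosome 4 from 94739289 to 94874976 on the plus strand and Tie1 on the same chromosome from 118471191 to 118490061 on the minus strand. Ptprb lies on chromosome 10 from 116275523 to 116389535 (plus). Angpt1 lies on chromosome 15 from 42424723 to 42676977 (minus), and Pdgfb lies on the same chromosome from 79995874 to 80014977 (minus). Angpt2 lies on chromosome 8 from 18690263 to 18741562 (minus), Pdgfd on chromosome 9 from 6168584 to 6378850 (plus) and Pdgfrb on chromosome 18 from 61045150 to 61085061 (plus). Their spans differ widely: Tie1 and Pdgfb span 18.9 and 19.1 kb, Pdgfrb and Angpt2 span 39.9 and 51.3 kb, and Ptprb, Tek, Pdgfd and Angpt1 span 114, 136, 210.3 and 252 kb. Their identifiers in the files are ENSMUSG00000006386 for Tek, ENSMUSG00000033191 for Tie1, ENSMUSG00000020154 for Ptprb, ENSMUSG00000022309 for Angpt1, ENSMUSG00000031465 for Angpt2, ENSMUSG00000000489 for Pdgfb, ENSMUSG00000032006 for Pdgfd and ENSMUSG00000024620 for Pdgfrb.

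Tek, Tie1, Ptprb and Pdgfd were found mostly in endothelial-like cells. Over the 4 libraries these cells held 93.8% of the UMIs of Tek, 93.2% of Tie1, 93.2% of Ptprb and 95.01% of Pdgfd, whereas microglia-like cells held 0.272%, 0.404%, 0.185% and 0.114%. Angpt2 had 82.1% of its UMIs in endothelial-like and 9.92% in microglia-like cells. Pdgfb had the widest distribution, with 59.4% in endothelial-like and 33.1% in microglia-like cells. Pdgfrb was the pericyte gene of the set, with 80.8% of its UMIs in the pericyte-like class, a class of 173 cells. Angpt1 was barely captured: 73 UMIs in all, of which 33 were in endothelial-like and 20 in pericyte-like cells. Levels are given below as CPM, the UMIs of a gene over all UMIs of the class in that library, scaled to a common total.

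**Figure D1:**
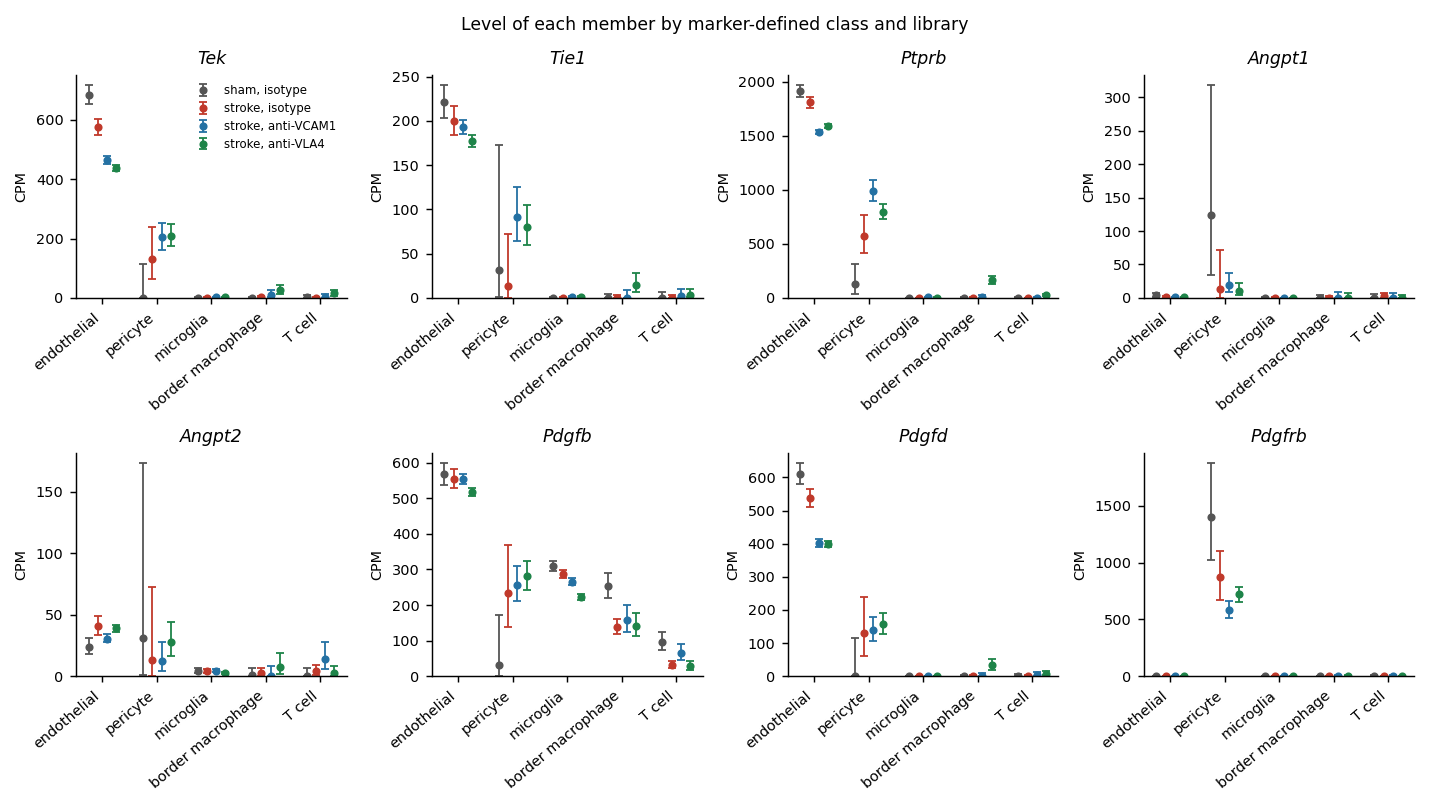
Level of each of the 8 members in CPM (y axis, linear) in 5 marker-defined cell classes (x axis) for the 4 libraries; points are summed counts of a class and bars exact Poisson 95% intervals. Tek, Tie1, Ptprb, Angpt2 and Pdgfd were led by endothelial-like cells in most libraries, Pdgfrb by pericyte-like cells, and Pdgfb was also present in microglia-like and border macrophage-like cells.

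Tek, the angiopoietin receptor, stood in endothelial-like cells at 684 CPM (95% interval 652 to 717) in sham, 576 (548 to 604) in stroke isotype, 465 (452 to 477) in the anti-VCAM1 and 439 (429 to 449) in the anti-VLA4 library. The 4 intervals did not overlap, with sham the highest and both blockade libraries the lowest. The log2 ratio of CPM was -0.25 (-0.35 to -0.15) in the stroke comparison (stroke isotype over sham). In the anti-VCAM1 and anti-VLA4 comparisons, each over stroke isotype, it was -0.31 (-0.39 to -0.23) and -0.39 (-0.47 to -0.31). Set against genes of like span, both blockade ratios lay near 0, at -0.0021 and -0.058. A list of 10 dissociation stress genes summed to 2252, 1618, 1738 and 1836 CPM in these cells, all 10 detected in each library and sham the highest; its part in the stroke differences was not tested. In single cells sham was again the highest and both blockade libraries the lowest, with no clear order between the blockade libraries. After each cell was thinned to 1000 UMIs, a Tek UMI was found in 51.6%, 43.1%, 34.4% and 33.6% of endothelial-like cells, leaving out 16, 36, 78 and 81 shallower cells. Without thinning the shares were 86.5%, 79.3%, 74.6% and 75.4%, at medians of 3893, 3797, 4061 and 4402 UMIs, against 0.472% to 0.826% in microglia-like cells at medians of 5192 to 7342.

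Tie1, the modulating receptor, differed less. It measured 221 (203 to 240.3), 199.9 (184 to 217), 193 (185 to 201) and 177 (171 to 184) CPM in sham, stroke isotype, anti-VCAM1 and anti-VLA4. Neighbours in this order overlapped except for anti-VCAM1 and anti-VLA4. The anti-VLA4 log2 ratio of Tie1 was -0.17 (-0.30 to -0.043). The stroke and anti-VCAM1 log2 ratios of Tie1 were -0.15 (-0.32 to 0.024) and -0.053 (-0.19 to 0.081).

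Ptprb, the phosphatase acting on Tek, stood at 1912 (1858 to 1967), 1808 (1759 to 1857), 1535 (1512 to 1557) and 1586 (1567 to 1606) CPM. Both blockade libraries were below both isotype libraries. Set against genes of like span, the 3 ratios changed sign, to 0.056, 0.050 and 0.12. The interval of the stroke value, -0.0006 to 0.11, held 0. As measured, the stroke log2 ratio of Ptprb was -0.081 (-0.14 to -0.024), and the anti-VCAM1 and anti-VLA4 ratios were -0.24 (-0.28 to -0.19) and -0.19 (-0.23 to -0.15).

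Angpt1, the activating ligand, had too few UMIs to be counted in the comparisons. Pericyte-like cells held 4, 1, 8 and 7 UMIs of it in the 4 libraries, or 124 (33.9 to 318), 12.98 (0.329 to 72.3), 19.2 (8.28 to 37.8) and 10.8 (4.35 to 22.3) CPM. The sham value rests on 10 cells. Endothelial-like cells held 10, 2, 9 and 12 UMIs, or 3.97, 0.694, 0.776 and 0.744 CPM, under the minimum of 50 UMIs set for a comparison. Sham was the highest, with a stroke log2 ratio of -1.55 (-5.75 to -0.29), and 9 of its 10 UMIs were in the arterial cluster 4 described below. The sham UMIs came from 4 of 549 cells, with up to 4 in a cell, and those of stroke isotype from 2 of 648. The interval takes UMIs as independent and does not cover this spread among cells.

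Angpt2, the endothelial ligand, differed most between sham and stroke isotype among the 6 members with at least 50 UMIs in endothelial-like cells. It had 60, 118, 355 and 626 UMIs, or 23.8 (18.2 to 30.7), 40.9 (33.9 to 49.04), 30.6 (27.5 to 33.95) and 38.8 (35.8 to 41.97) CPM. The sham and stroke isotype intervals did not overlap. Its stroke log2 ratio was 0.76 (0.32 to 1.25), and the anti-VCAM1 and anti-VLA4 ratios were -0.41 (-0.72 to -0.11) and -0.076 (-0.36 to 0.22). Few cells carried these counts: a UMI was found in 31 of 549 sham and 63 of 648 stroke isotype cells, and the 10 cells with the most UMIs held 65.00% of the sham and 45.8% of the stroke isotype UMIs. With the top cell of each library left out (17 UMIs in sham and 14 in stroke isotype) the stroke ratio was 1.04. After thinning, 10 sham and 16 stroke isotype cells kept an Angpt2 UMI, and the stroke ratio of 0.64 had an interval of -0.47 to 1.87. The anti-VCAM1 ratio was -0.30 (-0.63 to 0.018) without the top cells and -0.19 (-0.94 to 0.60) after thinning. With each cluster at the same weight in every library it was -0.28 (-0.60 to 0.022), so these intervals held 0. Thinned shares of 1.88%, 2.61%, 2.54% and 3.14% compare with 0.581%, 0.623%, 0.950% and 0.578% in microglia-like cells.

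Pdgfb, the pericyte-recruiting ligand, was the most even of these 6 members across libraries in endothelial-like cells. It stood at 567 (538 to 598), 555 (528 to 582), 554 (541 to 568) and 518 (507 to 529.7) CPM, and the first 3 intervals overlapped. The stroke log2 ratio of Pdgfb was -0.033 (-0.14 to 0.071), and the anti-VCAM1 and anti-VLA4 ratios were -0.0007 (-0.080 to 0.079) and -0.097 (-0.17 to -0.019). UMIs of 10 microglia markers, all detected in each library, made up 81.4, 343, 132 and 139 CPM of the endothelial-like sums, highest in stroke isotype; their part in the Pdgfb level was not tested.

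Pdgfd, a ligand of the same receptor, differed more. It measured 611 (581 to 642), 538 (511 to 565), 402 (390.1 to 413) and 398 (389 to 408) CPM, with both blockade libraries below both isotype libraries. Its stroke log2 ratio was -0.18 (-0.29 to -0.082), and the anti-VCAM1 and anti-VLA4 ratios were -0.42 (-0.50 to -0.34) and -0.43 (-0.51 to -0.35). Against genes of like span the blockade ratios were -0.026 and 0.011. After thinning, 39.6%, 36.8%, 27.4% and 27.4% of endothelial-like cells had a Pdgfd UMI, and at most 0.0692% of microglia-like cells did.

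The members' ratios were set against those of all genes in endothelial-like cells. A gene was counted as past the fold at 1.5-fold or more with its interval on that side of 0, and 6 of 8 members had the 50 UMIs over both libraries needed to be counted; Angpt1 and Pdgfrb had not. In the stroke comparison 1 member, Angpt2, was past the fold on the higher side, where 2.05% of 8896 genes were, and 0 on the lower side, where 2.44% were. In the anti-VCAM1 comparison 0 members passed either way, against 1.41% of 10501 genes higher and 5.66% lower, and in the anti-VLA4 comparison 0 members, against 1.73% of 10874 genes higher and 6.85% lower. A count by the interval alone depends on UMIs, since intervals narrow as counts rise, and the shares of all genes were not matched for counts. By the interval alone, 1 member was above 0 and 3 were below in the stroke comparison, against 7.66% and 12.6% of genes. In the anti-VCAM1 comparison 0 were above and 4 below, against 13.8% and 21.7%, and in the anti-VLA4 comparison 0 were above and 5 below, against 14.5% and 22.9%. The median log2 ratio of the 6 members was -0.11, -0.27 and -0.18, and that of all genes tested was -0.041, -0.054 and -0.066. The 2 blockade comparisons share the stroke isotype library.

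The members also differed among the 7 endothelial-like clusters. Cluster 4 carried 8 of 9 arterial markers and cluster 8 carried 4 of 7 venous markers; the other 5 clusters took no zone by their markers. Clusters 1 and 14 stood apart by low Malat1, a nuclear RNA, at 6965 and 1887 CPM against 18751 CPM or more in the others. Tek was highest in cluster 6 in the stroke libraries (746, 754 and 707 CPM), and in sham clusters 6 and 8 had 818 and 826. Pdgfd was highest in cluster 6 (838, 808, 724 and 721 CPM in the 4 libraries), and the arterial cluster 4 (676, 663, 487 and 508) was above the venous cluster 8 (403, 488, 347 and 375) in every library. Pdgfb lay between 458 and 628 CPM in all libraries of clusters 1, 3, 4, 6 and 8. It was less even in the smaller clusters, at 399 (273 to 564), 675 (582 to 780.0), 541 (494 to 592) and 552 (514 to 591) CPM in cluster 12 and at 475, 101, 352 and 362 CPM, from 10, 5, 44 and 53 UMIs, in cluster 14.

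Angpt2 also varied among clusters. The venous cluster 8 had 4.48, 7.39, 8.58 and 8.99 CPM from 2, 3, 9 and 12 UMIs, whereas cluster 6 had 48.9, 68.9, 79.3 and 55.5 CPM. The intervals of these 2 clusters did not overlap in any library. In cluster 3, Angpt2 was 18.01 (9.30 to 31.5), 22.5 (12.6 to 37.1), 32.4 (26.2 to 39.5) and 66.98 (59.5 to 75.2) CPM, so the anti-VLA4 library was the highest there. In cluster 12 the stroke isotype library was the highest, with 73.02 CPM (44.6 to 113) against 26.7 (17.1 to 39.8) and 22.9 (15.9 to 32.04) in the blockade libraries. The 13 sham cells had no UMI, with an interval up to 46.02 CPM that overlapped that of stroke isotype. The anti-VLA4 difference in Angpt2 thus had opposite signs in clusters 3 and 12, with log2 ratios of 1.53 (0.83 to 2.43) and -1.63 (-2.51 to -0.80).

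**Figure D2:**
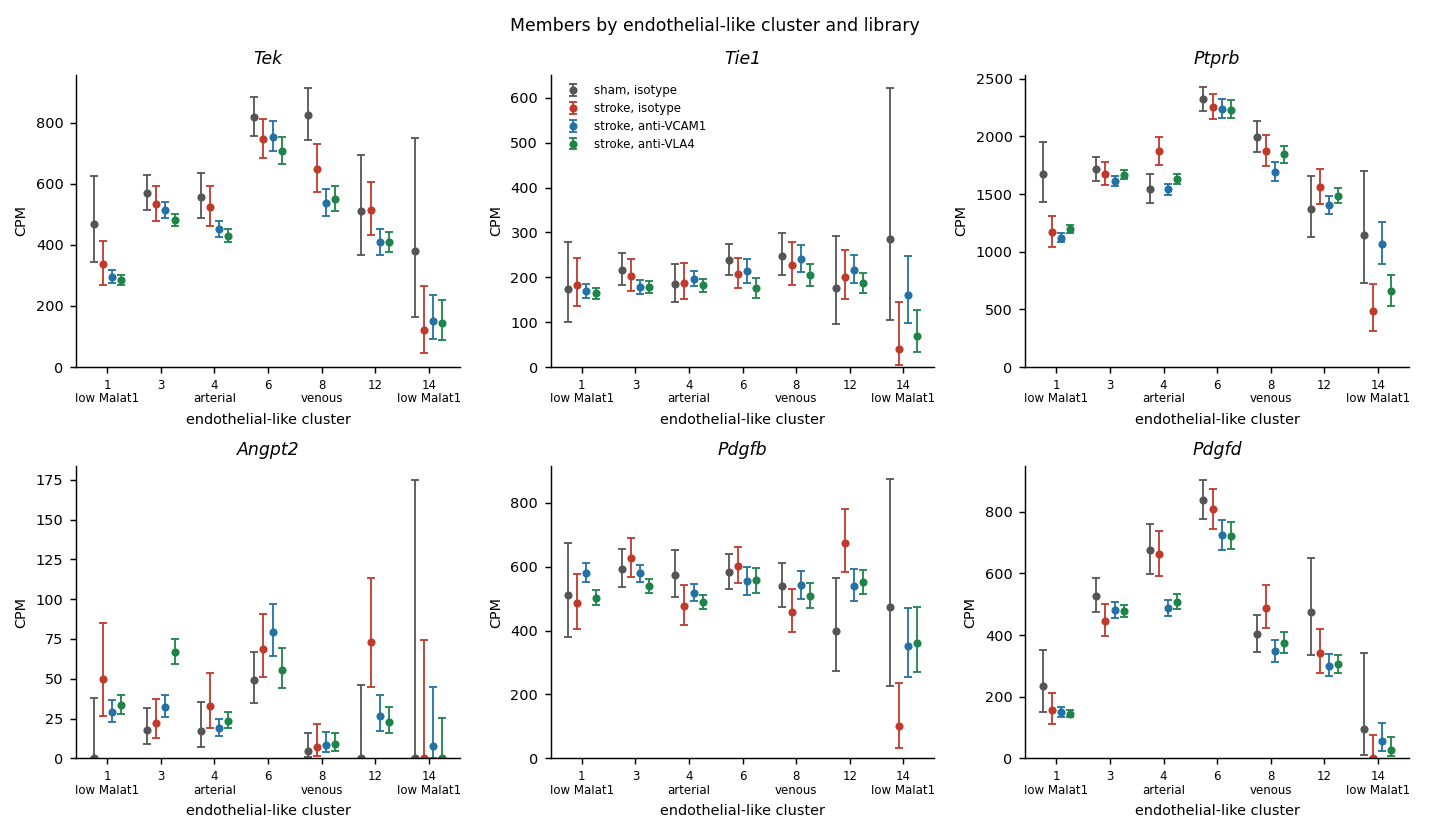
CPM (y axis, linear) of 6 members in the 7 endothelial-like clusters (x axis, with zone or low Malat1 where it applies) for the 4 libraries; bars are exact Poisson 95% intervals. Tek, Ptprb and Pdgfd were low in clusters 1 and 14 and highest in cluster 6 in most libraries, Pdgfb was more even outside clusters 12 and 14, and Angpt2 was at most 8.99 CPM in the venous cluster 8.

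Libraries differed in which endothelial-like clusters they filled. Cluster 6 held 36.8% and 27.9% of the endothelial-like cells in sham and stroke isotype but 12.02% and 10.1% in the blockade libraries, and cluster 1 held 5.28% and 10.5% but 27.8% and 29.7%. Clusters 1 and 14 together held 9.11% (6.84 to 11.8), 14.2% (11.6 to 17.1), 31.8% (29.9 to 33.7) and 32.7% (31.00 to 34.3) of the class. Between these 2 clusters and the other 5 the members of long span differed most: the log2 difference was -1.81 for Pdgfd, -0.89 for Tek and -0.59 for Ptprb, against -0.24 for Tie1, -0.24 for Angpt2 and -0.051 for Pdgfb. With each cluster given the same weight in every library, the anti-VCAM1 and anti-VLA4 log2 ratios moved from -0.31 and -0.39 to -0.14 and -0.20 for Tek, from -0.24 and -0.19 to -0.11 and -0.050 for Ptprb, and from -0.42 and -0.43 to -0.19 and -0.17 for Pdgfd. The stroke ratio of Angpt2 moved from 0.76 to 1.31 with these weights, as its sham level went from 23.8 to 15.01 CPM. Sham had no Angpt2 UMI in clusters 1 and 12, where it held 29 and 13 cells, so the weighted ratio leans on these small samples. Of the 4 clusters with at least 20 Angpt2 UMIs over both libraries, 4 were higher in stroke isotype and 1 had its interval above 0. That 1 was cluster 12, with 20 UMIs in stroke isotype and 0 in the 13 sham cells.

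Within clusters, the differences were uneven. In cluster 6, the anti-VCAM1 and anti-VLA4 log2 ratios of Tek were 0.015 (-0.14 to 0.17) and -0.077 (-0.23 to 0.075), and those of Ptprb were -0.012 and -0.016. Those of Pdgfd in cluster 6 were -0.16 (-0.31 to -0.0060) and -0.16 (-0.31 to -0.017). In the arterial cluster 4 the ratios were -0.22 (-0.41 to -0.017) and -0.29 (-0.48 to -0.089) for Tek and -0.44 (-0.62 to -0.26) and -0.38 (-0.56 to -0.21) for Pdgfd. In the venous cluster 8, Pdgfd had -0.49 (-0.74 to -0.23) and -0.38 (-0.62 to -0.13), and Tek had -0.27 (-0.48 to -0.052) and -0.23 (-0.44 to -0.025). Whether these differences between clusters exceed animal variation was not tested.

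**Figure D3:**
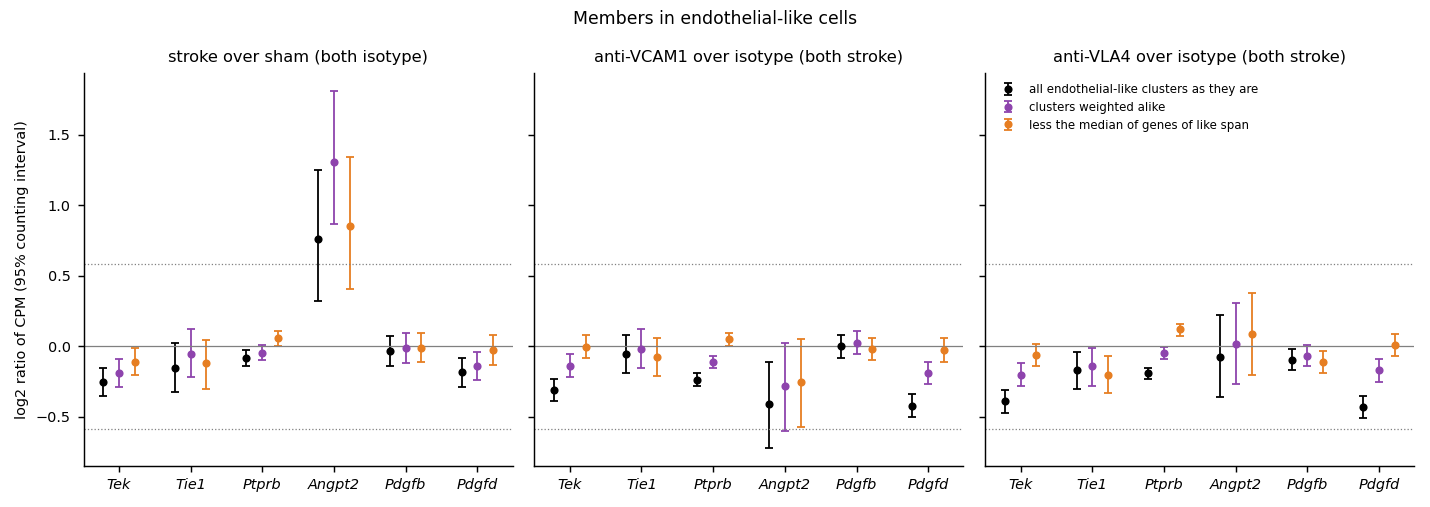
Log2 ratio of CPM (y axis) of 6 members in endothelial-like cells for the 3 comparisons (panels), as measured (black), with each cluster at the same weight in every library (purple) and less the running median of genes of like span (orange); bars are 95% counting intervals, those of the last 2 shifted from the first, and dotted lines mark 1.5-fold. Angpt2 in the stroke comparison, at 0.76, is the value beyond a dotted line, and the blockade ratios of Tek, Ptprb and Pdgfd lie nearer 0 in purple and orange.

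Gene span went with the ratio across all genes. Among genes over 100 kb the median log2 ratio was -0.15 in the stroke, -0.36 in the anti-VCAM1 and -0.39 in the anti-VLA4 comparison, and 78.00%, 91.7% and 91.7% of these genes were below 0. Among genes under 10 kb the medians were 0.082, 0.20 and 0.18. Less the running median of genes of like span, the blockade ratios of Tek were -0.0021 (-0.082 to 0.078) and -0.058 (-0.14 to 0.019), those of Pdgfd were -0.026 (-0.11 to 0.057) and 0.011 (-0.070 to 0.091), and those of Ptprb turned to 0.050 (0.0055 to 0.095) and 0.12 (0.075 to 0.16). Tie1, a short gene, moved the other way, to -0.074 (-0.21 to 0.060) and -0.20 (-0.33 to -0.069). The stroke ratio of Angpt2 was 0.85 (0.41 to 1.34) on this scale and that of Tek was -0.11 (-0.20 to -0.0086). On this scale the blockade intervals of Tek and Pdgfd held 0, and those of Ptprb lay above it. These are the counting intervals shifted by the running median. They leave out its error and the spread of genes around it, so they do not place Ptprb above genes of like span.

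**Figure D4:**
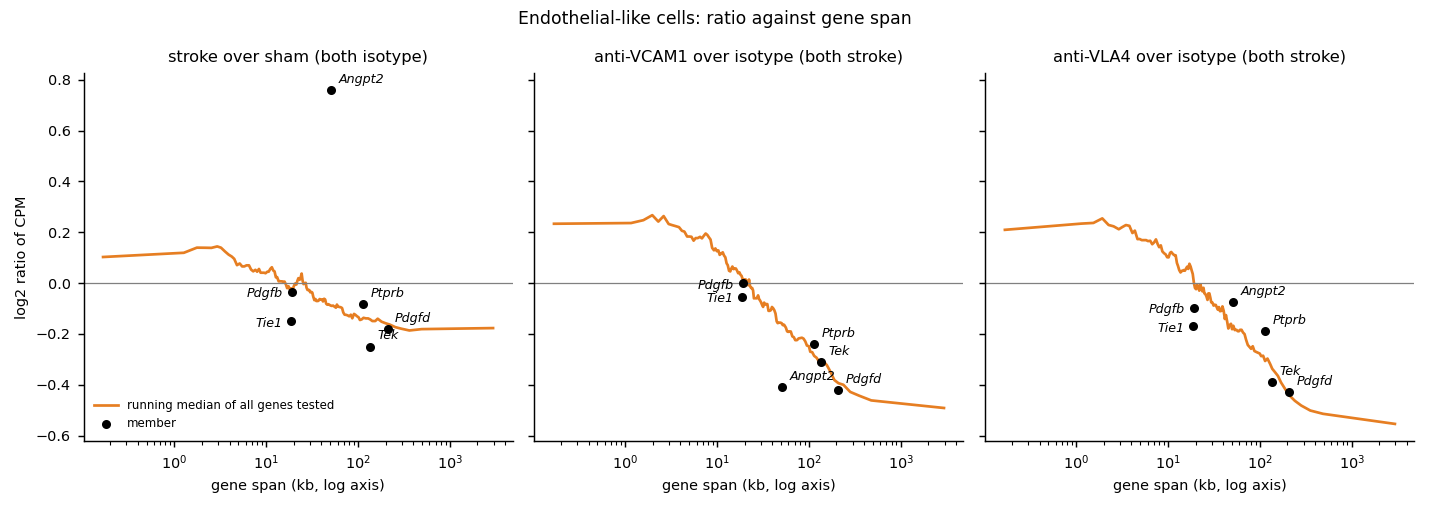
Log2 ratio of CPM in endothelial-like cells (y axis) against gene span in kb (x axis, log scale) for the 3 comparisons; the line is the running median of all genes tested and the points are the 6 members with at least 50 UMIs. In both blockade panels Tek and Pdgfd lie within 0.058 of the line, and in the stroke panel Angpt2 lies 0.85 above it.

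Outside the endothelium, Pdgfb had most of its UMIs in microglia-like cells, a far larger class than the pericyte-like one. It stood there at 309.8 (295 to 325), 288 (277 to 299), 266 (256 to 276) and 222 (214 to 229.8) CPM, lowest with anti-VLA4, with a stroke log2 ratio of -0.10 (-0.19 to -0.014) and anti-VCAM1 and anti-VLA4 ratios of -0.11 (-0.19 to -0.037) and -0.38 (-0.45 to -0.30). After thinning, 23.9%, 21.5%, 22.2% and 17.9% of microglia-like cells had a Pdgfb UMI (unthinned 67.5%, 62.6%, 59.2% and 56.1%), against 4.17%, 1.65%, 1.87% and 2.55% of T cell-like cells (medians 5726, 4551, 4720.0 and 3859 UMIs). Ptprb, at 1535 CPM or more in endothelial-like cells, was at 0.751 to 4.77 CPM in microglia-like cells. Pdgfb was spread over the microglia-like clusters: cluster 7 was the highest of the 5 larger ones in every library (375, 442, 412 and 335 CPM), and in cluster 0, the largest, the libraries stood at 311, 294, 287 and 254. Border macrophage-like cells had 254 (221 to 289), 139 (119 to 160.4), 159 (124 to 201) and 142 (112 to 177) CPM of Pdgfb, with sham above all 3 stroke libraries. Few cells carried the sham level: the 10 cells with the most UMIs held 62.9% of the 224 UMIs, and 1 cell held 33. The shares of border macrophage-like cells with a UMI did not single out sham, at 41.9%, 40.9%, 48.4% and 40.2%. After thinning they were 14.04%, 18.4%, 11.3% and 15.7%. In the anti-VLA4 library these macrophages also held 162 CPM of Ptprb (129.8 to 199) against 0.762 to 9.10 in the others, and the part of endothelial RNA in that library's Pdgfb value was not tested. Pericyte-like cells had 31.1, 234, 256 and 281 CPM of Pdgfb from 1, 18, 107 and 182 UMIs. The part of endothelial RNA in these pericyte-like values was not tested either.

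Pdgfrb marked the pericyte-like cells, of which 9 of 10, 13 of 14, 52 of 56 and 88 of 93 had a UMI. The level was 1399 (1020.5 to 1872), 869.7 (674 to 1104), 580.1 (509 to 658) and 719.7 (656 to 788) CPM from 45, 67, 242 and 466 UMIs. Sham was the highest and anti-VCAM1 the lowest. The stroke log2 ratio of Pdgfrb was -0.69 (-1.25 to -0.11), and the anti-VCAM1 and anti-VLA4 ratios were -0.58 (-0.98 to -0.17) and -0.27 (-0.65 to 0.12). Endothelial marker RNA in this class differed along with it: the 12 endothelial markers made up 0.155%, 0.909%, 1.25% and 1.28% of its UMIs, with Slco1a4 at 0 in sham and none at 0 in the other libraries, and Ptprb stood at 124, 571, 988 and 797 CPM. The 10 pericyte markers made up 2.67%, 2.25%, 1.68% and 1.95%. Malat1 stood at 56614, 53634, 29990.3 and 29983 CPM in this class, lower in both blockade libraries. The 6 smooth muscle markers summed to 2674, 1752, 3754 and 1311 CPM, highest with anti-VCAM1, with Cnn1 at 0 in the other 3 libraries. The part of these RNAs in the Pdgfrb differences was not tested. Per 1000 UMIs of the pericyte markers, Pdgfrb had 52.4 (37.9 to 70.7), 38.7 (29.9 to 49.4), 34.4 (30.2 to 39.1) and 36.9 (33.6 to 40.5) UMIs. On that scale the intervals of the 3 log2 ratios held 0, at -0.44 for stroke and, for the blockade comparisons, -0.17 (-0.57 to 0.24) and -0.068 (-0.44 to 0.32). At a coarser clustering the stroke isotype, anti-VCAM1 and anti-VLA4 levels were 583, 255 and 286 CPM, and the 3 log2 ratios were -1.19, -1.19 and -1.02.

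**Figure D5:**
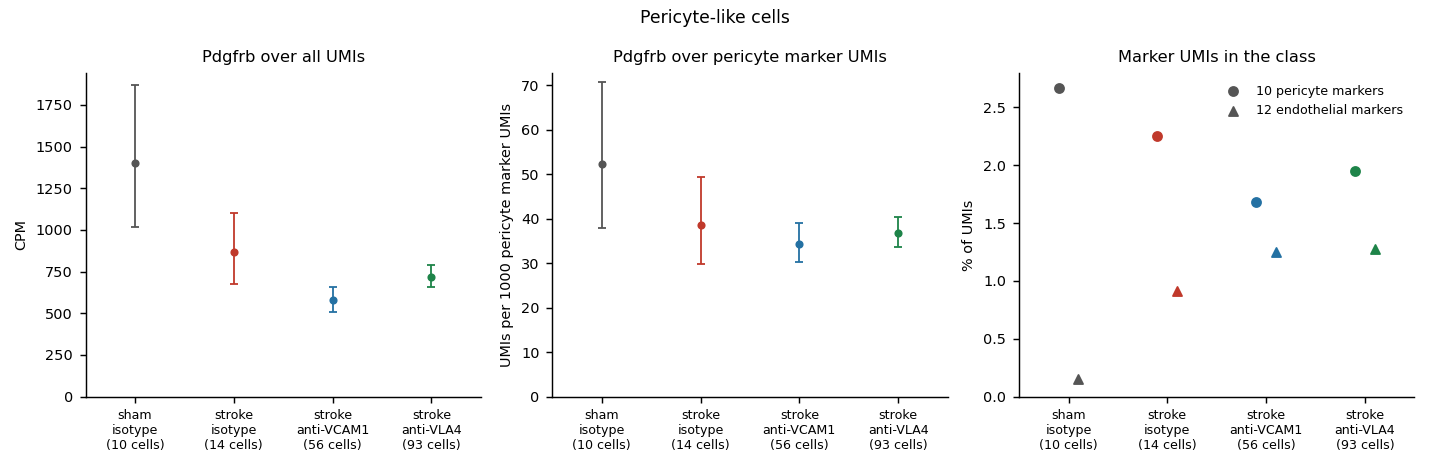
Pericyte-like cells by library (x axis, with the number of cells): Pdgfrb in CPM (left, y axis) and per 1000 UMIs of 10 pericyte markers (middle, y axis), with 95% counting intervals, and the percent of UMIs in 10 pericyte (circles) and 12 endothelial markers (triangles, right). Pdgfrb was at 1399 CPM in sham and 580.1 with anti-VCAM1, where the endothelial markers held 0.155% and 1.25% of UMIs.

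In endothelial-like cells Pdgfrb was near absent, with 2, 6, 16 and 23 UMIs, or 0.794, 2.08, 1.38 and 1.43 CPM. A UMI was found in 2 of 549, 6 of 648, 15 of 2397 and 23 of 3078 cells, and 2, 2, 8 and 12 of these also had UMIs of 2 or more pericyte markers, which 2.47% to 5.80% of all endothelial-like cells had. The microglia-like level was 0.390, 1.29, 0.894 and 1.79 CPM. The 10 pericyte markers summed to 129, 128, 260.2 and 280.3 CPM in endothelial-like cells, with Notch3 and P2ry14 at 0 in sham. T cell-like cells had no Pdgfrb UMI in any library, which allows up to 5.36 CPM (3 counts) where their sum was smallest. The left-out cluster with endothelial and pericyte markers had 28 and 52 Pdgfrb UMIs in the blockade libraries, or 42.2 and 47.9 CPM.

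The other genes of both pathways were taken from a list of 42: 20 on the Tie axis, 17 on the PDGF axis and 5 of endothelium to pericyte contact. In endothelial-like cells 33, 35 and 35 of them had enough UMIs in the stroke, anti-VCAM1 and anti-VLA4 comparisons. None was past the fold on the higher side, where 2.05%, 1.41% and 1.73% of all genes tested were. On the lower side 1 was past it in each comparison, where 2.44%, 5.66% and 6.85% of all genes tested were. Nck2, an adaptor of tyrosine kinase signalling, was the 1 in the stroke comparison, at 39.3 CPM in sham and 23.9 in stroke isotype, a log2 ratio of -0.69 (-1.18 to -0.26). Itga5, the integrin chain that pairs with Itgb1 and has been linked to Tie signalling, was the 1 in both blockade comparisons, at 20.8 CPM in stroke isotype, 11.7 with anti-VCAM1 and 13.3 with anti-VLA4, log2 ratios of -0.78 (-1.28 to -0.37) and -0.61 (-1.07 to -0.21). With a minimum of 200 UMIs no list gene passed in the stroke and anti-VCAM1 comparisons. By the interval alone, 1 of 33 list genes was above 0 and 9 were below in the stroke comparison, against 7.66% and 12.6% of all genes tested. In the anti-VCAM1 comparison 3 of 35 were above and 12 below, against 13.8% and 21.7%. In the anti-VLA4 comparison 4 of 35 were above and 12 below, against 14.5% and 22.9%. The Tie axis gave 8 of 17 below in each blockade comparison, and the PDGF axis gave 3 and 4 of 14. The shares of all genes were not matched for counts or gene span, so these counts are not read as a result about either axis. The median log2 ratio of the list was -0.11, -0.16 and -0.13 in the 3 comparisons.

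Foxo1, the transcription factor that Tek signalling restrains and that drives Angpt2, stood at 179.9, 162, 132 and 118 CPM, and Nos3, the endothelial nitric oxide synthase, at 236, 224, 189 and 180.3 CPM. Plat, tissue plasminogen activator, was at 423, 335, 394 and 398 CPM, lowest in stroke isotype. S1pr1, the sphingosine phosphate receptor of endothelial junctions, was at 875, 808, 869 and 860.4 CPM. Cdh2, the cadherin of endothelium to pericyte contacts, was at 51.6, 39.2, 28.8 and 33.2 CPM in endothelial-like cells and at 311 (149 to 572), 156 (80.5 to 272), 182 (144 to 228) and 154 (126 to 188) in pericyte-like cells. These 5 genes were chosen from the list for their roles with their values known.

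Over 37 sums of class and library with at least 10 cells, the genes whose log2 levels followed a member most closely were taken as a description, since these sums share libraries, depth and cell makeup. The highest Pearson correlation was 0.987 with Ushbp1 for Tek, 0.979 with Ttll7 for Tie1, 0.990 with Adgrf5 for Ptprb, 0.977 with Grb14 for Pdgfd and 0.824 with Rabac1 for Angpt2. Next were Mal for Tek (0.981), Bok for Tie1 (0.966), Hmcn1 for Ptprb (0.980), Stmn2 for Pdgfd (0.975) and Spaar for Angpt2 (0.823). The third were Slco1a4 (0.980), Bvht (0.965), Bsg (0.979), Slc38a3 (0.975) and Lama4 (0.811) in the same order. For Pdgfb they were Rac1 (0.922), Mtmr6 (0.905) and Selenop (0.894), and for Pdgfrb Il34 (0.972), Sod3 (0.966) and Atp13a5 (0.960), the last a pericyte marker. Angpt1, with 73 UMIs, had too few for this comparison.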

How the data were processed

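Single-cell RNA was measured in 4 libraries, 1 per group. The authors deposited UMI counts for each gene and barcode without normalization, and Cell Ranger 7.0.1 is named per the file headers. The submitters' processing notes list Cell Ranger 6.0.0, Seurat 4.3.0.1 and the builds mm10 and GRCh38, with no roles. No deposited barcode had fewer than 500 UMIs. Library totals were 10008987, 17130182, 25099141 and 34721356 UMIs.

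Kept cells had 500 UMIs or more, 200 genes or more and no more than 10% mitochondrial UMIs. Scrublet (scanpy 1.11.5, expected rate 0.05) marked 11, 24, 63 and 124 doublets, which were removed. Clustering took all cells without batch integration (2000 variable genes, 30 components, 15 neighbours, leidenalg 0.10.2 at resolution 1) and left out 182 genes: members, list, mitochondrial, ribosomal and haemoglobin genes. Each cluster was assigned to the class scoring highest on its markers. The class needed 3 markers present in 25% of the cluster's cells at a log2 fold of 1 or more, fewer than 5 markers of a second class, and no other class ahead among the top 10 genes. Where these failed, the class with the largest share of its markers detected was tried, a step set after the clusters had been seen.

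Counts were summed per class and library (Python 3.11.15, numpy 2.4.6, scipy 1.17.1). Levels in CPM carry exact Poisson intervals, shares exact Clopper-Pearson intervals and log2 ratios, with 1 CPM added to each level, conditional exact binomial intervals. All are at 95% and cover counting error only. The ratio step was tested on simulated data. All members were named; a list gene was named with at least 100 UMIs and a place among the 3 highest or 3 lowest past the fold, and for likeness the 3 highest correlations were named. The running median over gene span used 401 genes, and GENCODE M21 was matched for 32158 of 32285 genes. Of the alternatives tried, the closing section gives the effect. Members and lists were chosen with earlier results of these data known. Promoter sequences are RefSeq's.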

Additional observations from a re-analysis of the deposited data

How the results depend on the processing

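The number of members past 1.5-fold in endothelial-like cells was the same under 14 alternatives for the anti-VCAM1 and anti-VLA4 comparisons (0 members), and for the stroke comparison (1 member) under all but the thinning of cells to 1000 UMIs, which gave 0 and by its construction holds fewer UMIs. Removing the trend with gene span reversed Ptprb to 0.056 in the stroke, 0.050 in the anti-VCAM1 and 0.12 in the anti-VLA4 comparison. It reversed Pdgfd to 0.011 in the anti-VLA4 comparison. The intervals of the stroke Ptprb and anti-VLA4 Pdgfd values then held 0. Why long genes shift was not tested. Over all alternatives the log2 ratio of Angpt2 in the stroke comparison ranged from 0.64 to 1.31, that of Tek from -0.27 to -0.11, and the blockade ratios of Tek from -0.44 to -0.0021 and from -0.53 to -0.058. Angpt2 in the anti-VCAM1 comparison ranged from -0.45 to -0.19, and under some alternatives its interval held 0. Angpt2 in the anti-VLA4 comparison ranged from -0.12 to 0.41, with the reported sign under 9 of 14 alternatives. Of the member ratios under an alternative, 233 stayed within the interval of the reported value, 30 moved outside it and 4 reversed. The 4 are the Ptprb and Pdgfd ratios above, whose reported intervals lay on 1 side of 0. Sign changes of ratios whose reported interval held 0 are not among the 4. Such changes occurred for Angpt2 in the anti-VLA4 comparison and for Pdgfb. Pdgfb kept its sign under 12 of 14 alternatives in the stroke and 10 of 14 in the anti-VCAM1 comparison. For stroke, the Pdgfrb ratio in pericyte-like cells ranged from -1.19 at clustering resolution 0.5 to -0.34 with doublets kept. The cause was not tested. No paired analysis was possible because each group is 1 library. The alternatives without both low-Malat1 clusters, with the mixed cluster, and on shared barcodes and pericyte marker UMIs were added after the data had been seen. Depth limits Angpt1 everywhere and Angpt2 in single clusters, and the 10 and 14 pericyte-like cells of the isotype libraries limit Pdgfrb.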

Other observations

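The ligands and the receptor of the PDGF family outside the members had other cell patterns. Pdgfa, which signals mainly through Pdgfra, stood in endothelial-like cells at 52.8 (44.2 to 62.6), 43.7 (36.4 to 52.1), 51.3 (47.2 to 55.6) and 59.8 (56.1 to 63.7) CPM in sham, stroke isotype, anti-VCAM1 and anti-VLA4, and its anti-VLA4 log2 ratio was 0.44 (0.18 to 0.73). In pericyte-like cells Pdgfa was at 90.9 (36.5 to 187), 134 (101 to 174) and 63.3 (45.4 to 85.9) CPM in the 3 stroke libraries. Pdgfc was found mainly in border macrophage-like cells, at 38.5 (26.6 to 53.8), 13.7 (8.13 to 21.7), 18.2 (7.86 to 35.9) and 21.8 (11.3 to 38.1) CPM, against at most 1.89 in endothelial-like and microglia-like cells.

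Pdgfra, the marker receptor of oligodendrocyte precursors and fibroblasts, had 0, 0, 9 and 30 UMIs in the astrocyte-like class of 5, 23, 31 and 43 cells and at most 12 UMIs in the endothelial-like sums. Nrp1, a co-receptor of PDGF and VEGF signalling, was higher in border macrophage-like cells (387, 426, 412 and 467 CPM) than in endothelial-like cells (281, 283, 210.2 and 243 CPM), with intervals apart in every library. Svep1, a large matrix protein that binds Tie1, had 1 UMI in endothelial-like cells over the 4 libraries.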
